A study of Mus musculus with 9 samples.

Results

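Glycolysis and the response to low oxygen were followed through 31 genes in 9 mouse breast tumours. The genes were taken by symbol from the 49585 rows of a raw count table, and all 31 symbols were found. They fall into 3 roles: 3 carriers that move glucose in and lactate out (Slc2a1, Slc2a3 and Slc16a3), 18 enzymes and regulators of glycolysis (from Hk1 to Pdk1), and 10 genes of the hypoxia response, namely Hif1a, which encodes the oxygen-regulated subunit of hypoxia-inducible factor (HIF), and 9 genes known as HIF targets. The members were chosen by function and not by their level, though with earlier results of these data known. All 31 passed the filter on low counts that left 19606 genes for testing.

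The tumours were breast adenocarcinomas that arose without induction in mice that carried Rosa26LSL CAS9-P2A-EGFP/+ together with K14-Cre on a Trp53wm-R172H/fl background, a genotype that both groups share. K14-Cre drives the Cre recombinase from the keratin 14 promoter, which is active mainly in basal epithelial cells, so the Cre-dependent alleles are meant to act in epithelium and not in stroma, vessels or immune cells. Those alleles include a floxed Trp53 and a Rosa26 cassette with Cas9 and EGFP. R172H alters the part of p53 that contacts DNA. The label does not spell out wm, so it does not say whether that allele also depends on Cre or in which cells the mutant protein is made. Adeno-associated virus (AAV), a vector that carries genes into tissue, was given on days 0, 3 and 8, and tumours were collected once euthanasia criteria had been reached. There were 3 AAV-Control tumours and 6 AAV-∆mut-p53 tumours, in which mutant p53 was to be deleted. Age, the interval between injection and harvest, and the guides were not found in the labels used here. Whole frozen tumours were extracted, so a lower value can reflect fewer cells of a type or less RNA per cell, which cannot be told apart in such samples. The labels do not say that each tumour came from its own animal, and the titles of AAV-∆mut-p53 4 and 5 carry the same number, so the p-values below measure only the spread between these 9 samples.

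Glycolysis splits glucose into pyruvate in the cytosol, and lactate dehydrogenase turns pyruvate into lactate when mitochondria do not take it up. Under low oxygen the prolyl hydroxylases that mark HIF1A for destruction slow down, HIF1A pairs with ARNT, and the pair binds short motifs near genes for glucose carriers, glycolytic enzymes, pH control and mitophagy. Many tumours also run glycolysis at high oxygen, and wild-type p53 is known to restrain several of the same steps.

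Total counts ran from 18581545 to 30953250 per tumour, with the 3 control libraries the deepest. Levels are given as CPM (counts per 1000000) after scaling by TMM factors. Trp53, the targeted gene, lay between 39.3 and 48.6 CPM in the controls and between 13.1 and 41.5 CPM in the AAV-∆mut-p53 tumours, of which 4 were below every control. Its log2 fold change was -0.42 ± 0.37 (SE; edgeR quasi-likelihood test, Benjamini-Hochberg FDR = 0.78). AAV-∆mut-p53 2 stood apart: 13 skeletal muscle markers summed to 45570 CPM there, against 48.3 to 464 CPM in the other 8 tumours.

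Glycolytic enzyme and carrier genes tended to have higher means in the AAV-∆mut-p53 tumours, but no member passed the test. For the 10 members grouped as Hif1a and its targets, the share with a higher mean, 60.0%, was near that of all genes. Among 35 further HIF targets outside the members it was 71.4%. The fitted mean was higher for 25 of the 31 members and lower for 6, where 55.6% of all genes tested were higher. The median log2 fold change of the members was 0.59, beside 0.09 over all 19606 genes. edgeR's quasi-likelihood test called 0 of 31 members at an FDR of 0.05, and 0% of all genes tested, with a smallest member FDR of 0.677. At an unadjusted p under 0.05 there were 3 members, Hk2, Aldoa and Pfkfb3, all higher, beside 3.82% of all genes called higher and 3.26% called lower. The 2 groups did not overlap for 0 of the 31 members, against 1.47% of all genes with every AAV-∆mut-p53 tumour above the controls and 1.59% with every one below.

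DESeq2 called 0.582% of the genes it adjusted at an FDR of 0.05 and again 0 members. Its unadjusted p was under 0.05 for 10 members, all higher (Slc2a3, Hk2, Pfkfb3, Aldoa, Aldoc, Tpi1, Slc16a3, Adm, Ndrg1 and Ero1a), where 6.69% of all genes were called higher by that rule. It gave no p for Car9. limma voom with sample quality weights called 0 members at an FDR of 0.05 and 4 at an unadjusted p under 0.05, with 10.4% of all genes past that p in either direction. These 4 were Hk2, Pfkl, Aldoc and Ero1a, and Aldoa and Pfkfb3 were not among them. The log2 fold changes from voom differed from those of edgeR, described gene by gene, in both directions. They were smaller by over 1.5 times for several members, at 1.08 for Slc2a3, 1.17 for Slc16a3, 0.87 for Aldoa and 1.38 for Ndrg1. The same held for Adm at 0.69, Gapdh at 0.50, Pfkfb4 at 0.48, Pfkm at 0.35 and Car12 at -0.28. They were larger for Pfkl at 0.84, Pfkp at 0.71 and Car9 at 1.01, among others.

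The 3 roles differed in their medians. The carriers were higher for 3 of 3 with a median log2 fold change of 1.81, the enzymes and regulators in 16 of 18 with a median of 0.72, and Hif1a with its targets in 6 of 10 with a median of 0.41. That last share, 60.0%, was near the 55.6% of all genes tested, whose median was 0.09. The roles do not separate HIF targets from the rest, since the enzymes also hold known HIF targets such as Pdk1. No test of the difference between roles was made. The plot of fold changes with their intervals shows how wide each estimate was.

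**Figure D1:**
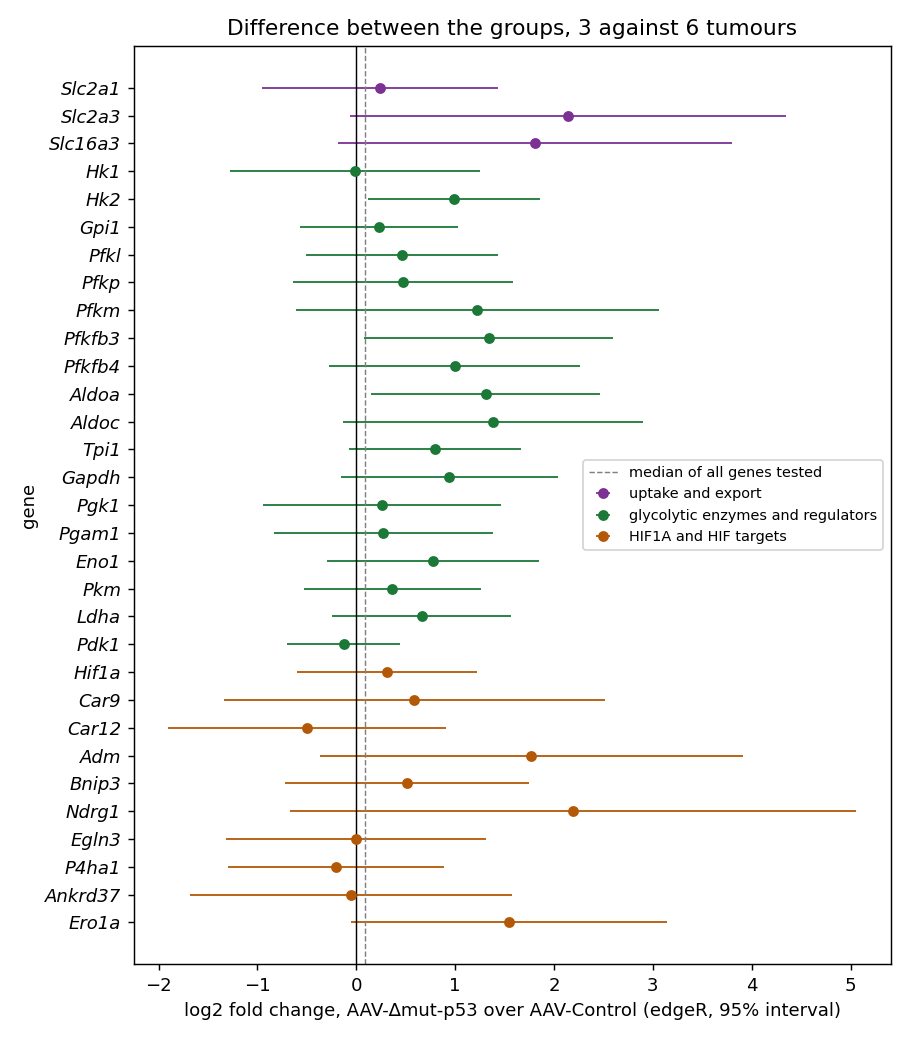
Log2 fold change of each of the 31 genes, AAV-∆mut-p53 over AAV-Control, with its 95% interval from the edgeR fit; the vertical dashed line is the median of all genes tested, 0.09, and colours mark the 3 roles. The intervals of Hk2, Pfkfb3 and Aldoa lie above 0, and those of the other 28 genes include 0.

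The start of each gene was read for the core of the hypoxia response element, ACGTG and GCGTG on either strand, in windows of 300 bases (250 before the start and 50 after) from RefSeq on GRCm38.p6. A window was found for 29 of the 31 members, and the one nearest the annotated gene start was used, which for Ldha, Hif1a and Ankrd37 lay 4329, 6492 and 5857 bases from it. For Gapdh, Slc16a3, Aldoa and Pfkl the distance was 694, 587, 304 and 276 bases, and for the rest at most 208. The motif stood in 23 of the 29 windows (79.3%) and in 43.8% of all 32851 windows of the table. Only the nearest window of each member was counted, while the share of all windows covers every window, with several for some genes. At least 2 matches stood in 62.1% of the members' windows and in 20.6% of all windows, with a palindromic match counted on each strand. The members' windows were also richer in G and C, with a median of 64.7% against 52.7%, and the part of base composition in the motif shares was not tested. A match is a run of letters and not a bound site.

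To show what these starts look like, 5 windows are given 5′ to 3′ with the motif in capitals: those of the 3 members with the smallest p, of the lactate exporter gene Slc16a3 and of Ero1a. They lie at chr6:82774405-82774704 on the minus strand (Hk2), chr2:11553880-11554179 on the minus strand (Pfkfb3), chr7:126800398-126800697 on the minus strand (Aldoa), chr11:120948817-120949116 on the plus strand (Slc16a3) and chr14:45318523-45318822 on the minus strand (Ero1a).
Hk2: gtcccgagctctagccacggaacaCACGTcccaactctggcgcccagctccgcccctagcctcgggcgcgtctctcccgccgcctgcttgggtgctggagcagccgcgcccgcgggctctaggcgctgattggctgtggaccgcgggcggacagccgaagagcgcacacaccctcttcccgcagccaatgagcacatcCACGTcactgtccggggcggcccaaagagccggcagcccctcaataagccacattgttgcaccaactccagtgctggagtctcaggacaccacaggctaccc
Pfkfb3: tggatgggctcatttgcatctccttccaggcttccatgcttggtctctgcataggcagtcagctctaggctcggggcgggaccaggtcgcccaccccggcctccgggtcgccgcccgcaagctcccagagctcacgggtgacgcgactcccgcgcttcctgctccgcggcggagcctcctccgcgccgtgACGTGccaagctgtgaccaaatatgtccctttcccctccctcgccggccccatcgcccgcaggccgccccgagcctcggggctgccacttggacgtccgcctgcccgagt
Aldoa: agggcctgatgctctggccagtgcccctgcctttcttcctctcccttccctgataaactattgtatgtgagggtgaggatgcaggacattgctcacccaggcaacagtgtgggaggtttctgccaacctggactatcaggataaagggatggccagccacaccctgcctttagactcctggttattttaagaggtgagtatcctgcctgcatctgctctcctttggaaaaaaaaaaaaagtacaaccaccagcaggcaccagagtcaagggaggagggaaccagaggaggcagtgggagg
Slc16a3: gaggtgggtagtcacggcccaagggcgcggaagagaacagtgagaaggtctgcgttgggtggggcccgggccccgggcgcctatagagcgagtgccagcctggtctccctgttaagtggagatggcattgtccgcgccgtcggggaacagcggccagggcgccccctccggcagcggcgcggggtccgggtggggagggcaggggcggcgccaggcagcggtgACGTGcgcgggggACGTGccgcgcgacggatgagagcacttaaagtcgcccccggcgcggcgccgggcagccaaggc
Ero1a: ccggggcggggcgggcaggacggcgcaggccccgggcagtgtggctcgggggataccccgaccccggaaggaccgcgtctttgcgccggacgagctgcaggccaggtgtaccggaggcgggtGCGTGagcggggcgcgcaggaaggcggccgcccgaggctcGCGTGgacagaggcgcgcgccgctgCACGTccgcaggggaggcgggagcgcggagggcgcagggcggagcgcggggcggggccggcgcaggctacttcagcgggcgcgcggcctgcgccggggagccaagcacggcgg
Hk2 held 2 matches, Pfkfb3 1, Slc16a3 2 and Ero1a 3. Aldoa held 0 in this window, which says only that these letters are absent from these 300 bases. Of its 3 RefSeq windows only this one was read. Counted from the RefSeq start of each window, the nearest match lay 14 bases before it in Slc16a3 (position -14), at -52 in Hk2, at -60 in Pfkfb3 and at -63 in Ero1a. The 6 members with 0 matches were Hk1, Gpi1, Aldoa, Tpi1, Pkm and Car12.

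Of the 3 carriers, 2 had fold changes among the largest of the set. Slc2a3 (chromosome 6, 122727809 to 122801640 in GRCm38), which encodes the high-affinity glucose carrier GLUT3, was 3.865, 4.002 and 4.199 CPM in AAV-Control 1 to 3. It was 4.27, 19.4, 2.69, 11.7, 4.74 and 63.8 CPM in AAV-∆mut-p53 1 to 6. The 3 controls were nearly equal, 5 of 6 AAV-∆mut-p53 tumours were above all of them (1 and 5 by little), and AAV-∆mut-p53 3 was below. The log2 fold change was 2.14 ± 0.999 (SE; edgeR FDR = 0.677), and 1.09 without AAV-∆mut-p53 6.

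Slc16a3 (chromosome 11, 120948480 to 120960868) encodes MCT4, which exports lactate. It was 7.13, 4.50 and 16.2 CPM in the controls and 20.8, 59.4, 7.67, 29.0, 3.67 and 74.2 CPM in AAV-∆mut-p53 1 to 6. AAV-∆mut-p53 1, 2, 4 and 6 were above every control, while 3 lay among the controls and 5 was the lowest of the 9. This gave a log2 fold change of 1.81 ± 0.90 (SE; edgeR FDR = 0.677).

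Slc2a1 encodes GLUT1, the general glucose carrier of epithelium. It was 35.4, 93.3 and 71.0 CPM in the controls, and 30.3 to 162 CPM with a median of 57.5 CPM in the AAV-∆mut-p53 tumours. The groups overlapped widely, with AAV-∆mut-p53 5 the lowest and 6 the highest of the 9. The log2 fold change was 0.24 ± 0.54 (SE), and it changed sign without AAV-Control 1 or without AAV-∆mut-p53 6.

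**Figure D2:**
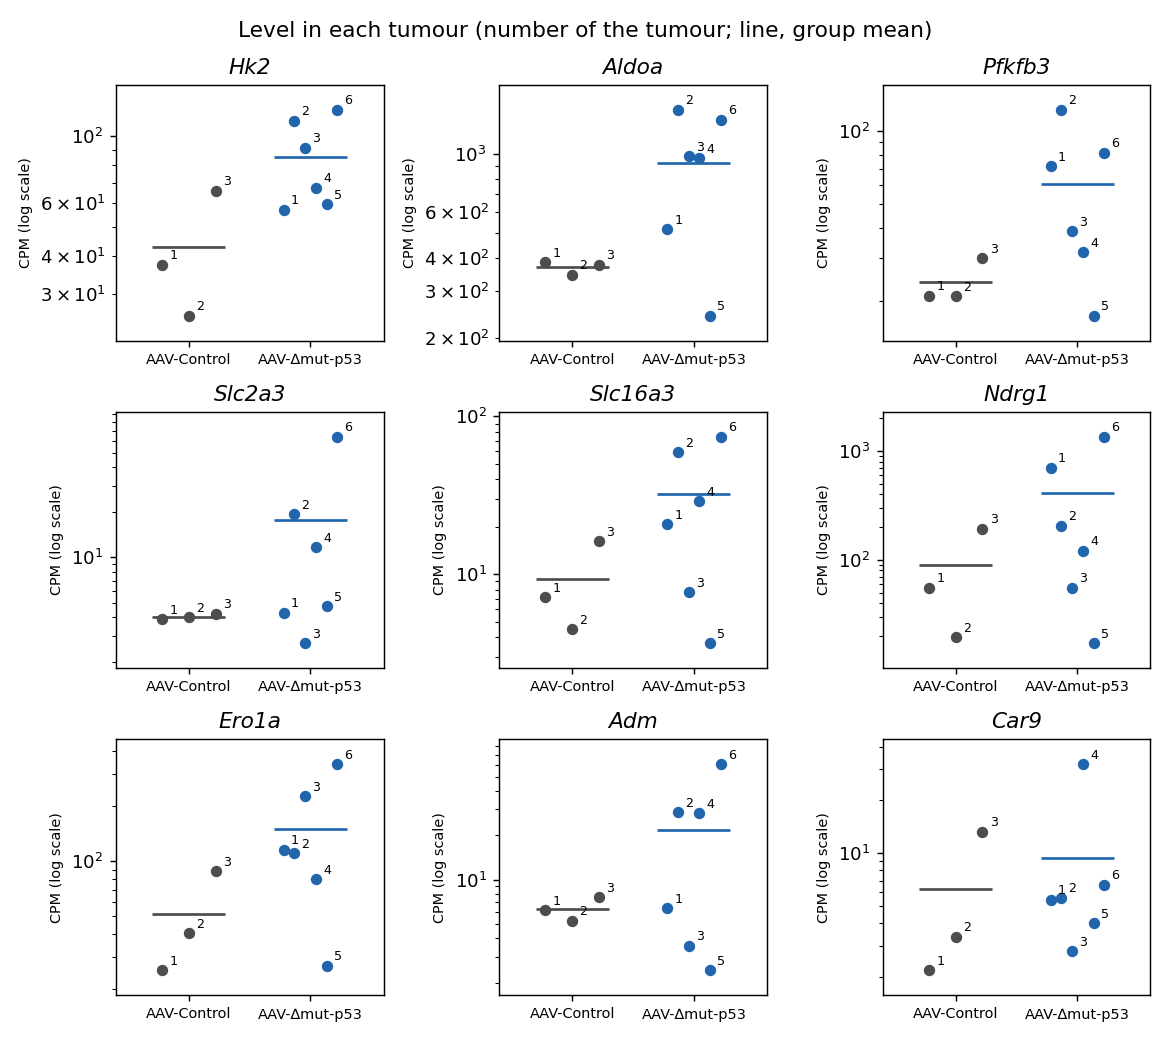
Level of 9 members in each tumour, in CPM on a log scale; each point is a tumour with its number, grey for AAV-Control and blue for AAV-∆mut-p53, and the line is the group mean. AAV-∆mut-p53 5 is the lowest of the 9 tumours for Aldoa, Pfkfb3, Slc16a3, Ndrg1 and Adm, and AAV-∆mut-p53 6 is the highest for Hk2, Slc2a3, Slc16a3, Ndrg1, Ero1a and Adm.

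Among the enzymes, hexokinase traps glucose in the cell by phosphorylation. Hk2 (chromosome 6, 82725025 to 82774454), the inducible form, was 37.5, 25.4 and 65.8 CPM in the controls. It was 57.0, 112, 91.4, 67.4, 59.5 and 122 CPM in AAV-∆mut-p53 1 to 6. AAV-∆mut-p53 2, 3, 4 and 6 were above every control and 1 and 5 lay below AAV-Control 3. The means were 42.9 ± 20.8 CPM (SD, n = 3) and 85.0 ± 28.1 CPM (SD, n = 6), and the log2 fold change was 0.99 ± 0.39 (SE; edgeR FDR = 0.677). It stayed between 0.73 and 1.42 when single tumours were left out.

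Hk1, the housekeeping hexokinase, did not share that shift. It was 106, 319 and 221 CPM in the controls and 142, 86.9, 556, 144, 161 and 190.2 CPM in AAV-∆mut-p53 1 to 6. AAV-∆mut-p53 3 was far above the other 8 tumours, and the fitted log2 fold change was -0.01 ± 0.57 (SE).

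Phosphofructokinase sets the pace of glycolysis, and its strongest activator, fructose 2,6-bisphosphate, is made by the PFKFB enzymes. Pfkfb3 (chromosome 2, 11471433 to 11554077) was 21.0, 21.0 and 30.0 CPM in the controls. It was 71.7, 123, 38.7, 31.7, 17.4 and 81.5 CPM in AAV-∆mut-p53 1 to 6. All but AAV-∆mut-p53 5, the lowest of the 9, were above every control, though 4 exceeded AAV-Control 3 by little. The log2 fold change was 1.34 ± 0.57 (SE; edgeR FDR = 0.677), and 1.01 without AAV-∆mut-p53 2.

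Pfkfb4 was lower in level, at 5.57 to 7.73 CPM in the controls and 7.35 to 35.3 CPM in the others, with AAV-∆mut-p53 2 the only one past 14.1 CPM. Its log2 fold change was 0.9965 ± 0.5733 (SE), and 0.46 without that tumour. Among the 3 phosphofructokinase genes, the liver-type Pfkl ranged from 104 to 264 CPM in the controls and from 105 to 391 CPM in the others, with a log2 fold change of 0.47 ± 0.44 (SE), from 0.17 without AAV-Control 1 to 0.82 without AAV-Control 2. The platelet-type Pfkp and the muscle-type Pfkm reached 259.9 and 235 CPM in AAV-∆mut-p53 2, the tumour with muscle markers, and at most 130.3 and 50.2 CPM in the other 5 AAV-∆mut-p53 tumours. For Pfkm the log2 fold change was 1.23 ± 0.83 (SE), and 0.20 without AAV-∆mut-p53 2, and for Pfkp it was 0.47 ± 0.50 (SE), and 0.11 without that tumour or without AAV-Control 1.

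Aldolase splits the phosphorylated sugar. Aldoa (chromosome 7, 126795234 to 126800751), the form of muscle and most tumours, was 387, 347 and 379 CPM in the controls. It was 518, 1467, 976, 962, 242 and 1345 CPM in AAV-∆mut-p53 1 to 6. The controls lay close together, 5 of 6 AAV-∆mut-p53 tumours were above them and AAV-∆mut-p53 5 was below them. The means were 371 ± 21.2 CPM (SD, n = 3) and 918 ± 470 CPM (SD, n = 6), and the log2 fold change was 1.31 ± 0.53 (SE; edgeR FDR = 0.677). Without the muscle-rich AAV-∆mut-p53 2 the log2 fold change was 1.13.

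Aldoc, the form best known from brain, was 42.2, 40.8 and 37.9 CPM in the controls and 64.9, 13.2, 250.1, 129, 78.5 and 93.4 CPM in AAV-∆mut-p53 1 to 6. Here AAV-∆mut-p53 2 was the lowest of the 9 and the other 5 were above every control, with a log2 fold change of 1.38 ± 0.69 (SE; edgeR FDR = 0.677), and 0.91 without AAV-∆mut-p53 3. Aldoa and Aldoc thus ordered the tumours differently at the same step.

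Tpi1 encodes triosephosphate isomerase, which balances the products of aldolase. It was 461, 279 and 421 CPM in the controls and 587, 489, 656, 629, 428 and 1255 CPM in AAV-∆mut-p53 1 to 6. AAV-∆mut-p53 5 lay among the controls, the other 5 were above them, and AAV-∆mut-p53 6 stood far above the rest. Its log2 fold change was 0.80 ± 0.39 (SE; edgeR FDR = 0.677), and 0.53 without AAV-∆mut-p53 6.

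Ldha encodes the lactate dehydrogenase subunit that favours lactate. It was 325, 344 and 390 CPM in the controls and 405, 506, 483, 656, 267 and 1029 CPM in AAV-∆mut-p53 1 to 6. As with Aldoa, 5 of 6 were above the controls and AAV-∆mut-p53 5 was the lowest of all, with a log2 fold change of 0.66 ± 0.41 (SE; edgeR FDR = 0.698), and 0.40 without AAV-∆mut-p53 6. Pkm, the pyruvate kinase gene and the most abundant member per length, was 1034 to 1558 CPM in the controls and 947 to 2386 CPM in the others, with a log2 fold change of 0.37 ± 0.40 (SE), which ran from 0.22 without AAV-∆mut-p53 6 to 0.55 without AAV-Control 3.

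The remaining enzymes were Gpi1, Gapdh, Pgk1, Pgam1, Eno1 and Pdk1. Gapdh and Eno1, the oxidation step and enolase, had log2 fold changes of 0.94 ± 0.50 and 0.78 ± 0.48 (SE), with AAV-∆mut-p53 6 highest for both at 348 and 495 CPM. Without that tumour the values were 0.57 and 0.44. Gpi1, Pgk1 and Pgam1 had log2 fold changes of 0.23, 0.26 and 0.27, and the first was 0.05 without AAV-Control 1 while the others changed sign when 1 tumour was left out. Pdk1, the kinase that shuts pyruvate out of the mitochondrion and a known HIF target, was the steadiest member: it spanned 77.9 to 127 CPM over all 9 tumours, a 1.63-fold range, with a log2 fold change of -0.13 ± 0.26 (SE).

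Levels of different genes can be set side by side only per length. Exon length here joins all annotated exons of a gene, 4133 bases for Gapdh, and can exceed the length of the transcript in use. In mean RPKM (CPM divided by the exon length in kilobases) over the 9 tumours, Pkm stood at 297, Aldoa at 253, Tpi1 at 210.0 and Ldha at 148. Gapdh at 32.9, Pgk1 at 14.0 and Pgam1 at 8.98 RPKM were far below, although they serve the same pathway. Of all 100-base runs in the transcripts of these 3 genes, 20.9% for Gapdh, 51.7% for Pgk1 and 33.9% for Pgam1 also occur in transcripts of other genes, Gapdh sharing runs with 86 of them. For 13 members, Hk2 and Pfkfb3 among them, no run was shared. The labels give no rule for reads that fit several genes, so the size of these 3 genes, and of Bnip3 (24.6%) and Eno1 (20.4%), is uncertain. The parts of shared runs and of the joined exon length in their low levels were not tested.

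Hif1a itself (chromosome 12, 73901375 to 73947530) was 189, 224 and 166 CPM in the controls and 124, 294, 161, 165, 237 and 456 CPM in AAV-∆mut-p53 1 to 6. Of the 6, 3 were above every control and 3 below every control, though AAV-∆mut-p53 3, 4 and 5 passed the nearest control by little. The log2 fold change was 0.31 ± 0.41 (SE; edgeR FDR = 0.858). Without AAV-∆mut-p53 6 that value was 0.03. HIF1A is controlled mainly through its stability, which RNA does not show.

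The HIF targets divided. Ero1a (chromosome 14, 45283087 to 45318771), an oxidase that forms disulfide bonds in the endoplasmic reticulum, was 25.5, 40.7 and 88.3 CPM in the controls and 116, 111, 226, 80.2, 26.9 and 340.4 CPM in AAV-∆mut-p53 1 to 6. AAV-∆mut-p53 1, 2, 3 and 6 were above every control, and 4 and 5 lay among them. Ero1a had a log2 fold change of 1.54 ± 0.72 (SE; edgeR FDR = 0.677), and ran from 1.12 to 2.17 when single tumours were left out.

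Ndrg1 (chromosome 15, 66929318 to 66969640), a stress-induced gene of epithelial differentiation, had the widest spread of the 31. It was 55.3, 19.5 and 193 CPM in the controls and 702, 206, 55.5, 121, 17.3 and 1350 CPM in AAV-∆mut-p53 1 to 6, a 78.3-fold range. AAV-∆mut-p53 1 and 6 were far above the controls, 2 only just, 3 and 4 lay among them and 5 was the lowest of all. Its log2 fold change, 2.19 ± 1.29 (SE; edgeR FDR = 0.69), was the largest of the members. It was 1.30 without AAV-∆mut-p53 6 and 3.43 without AAV-Control 3.

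Adm encodes adrenomedullin, a vessel-widening peptide. It was 6.18, 5.27 and 7.57 CPM in the controls and 6.38, 28.6, 3.57, 28.1, 2.43 and 60.8 CPM in AAV-∆mut-p53 1 to 6. The controls were tight, while AAV-∆mut-p53 2, 4 and 6 were above them, 3 and 5 below them and 1 among them. For Adm this came to a log2 fold change of 1.77 ± 0.97 (SE; edgeR FDR = 0.678), and 1.13 without AAV-∆mut-p53 6.

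Car9, the carbonic anhydrase that is a classical tissue marker of hypoxia, was 2.18, 3.37 and 13.2 CPM in the controls and 5.44, 5.59, 2.78, 32.0, 4.03 and 6.64 CPM in AAV-∆mut-p53 1 to 6. A single tumour, AAV-∆mut-p53 4, was above AAV-Control 3. Its log2 fold change was 0.59 ± 0.87 (SE), turned to -0.33 without that tumour and was 1.76 without AAV-Control 3. Car12, a related membrane carbonic anhydrase, ran the other way, with 124 to 286 CPM in the controls and 19.2 CPM in AAV-∆mut-p53 2, the lowest of the 9. Its log2 fold change was -0.50 ± 0.63 (SE), from -0.77 without AAV-Control 1 to -0.19 without AAV-Control 2, and it was the only member whose highest tumour was a control (AAV-Control 2).

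For Bnip3, a mitophagy receptor, the log2 fold change was 0.51 ± 0.56 (SE), from 0.22 without AAV-∆mut-p53 2 to 0.90 without AAV-Control 3. Egln3, a HIF prolyl hydroxylase, Ankrd37, an ankyrin repeat protein, and P4ha1, a collagen prolyl hydroxylase, gave log2 fold changes of -0.00, -0.05 and -0.21. For these last 3 genes AAV-Control 3 was among the highest tumours, at 102 CPM for Egln3, 11.5 CPM for Ankrd37 and 264 CPM for P4ha1, and each fold change was above 0 without it (0.43, 1.06 and 0.23).

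Single tumours stood at the ends of the range for many members. AAV-∆mut-p53 6 had the highest level for 16 of 31 members (51.6%), where it was highest for 12.8% of all genes tested. AAV-∆mut-p53 2 was highest for 9 members (29.0%, against 19.9% of all genes). AAV-∆mut-p53 5 was lowest for 12 members (38.7%, against 7.38%), and AAV-Control 1 for 6 (19.4%, against 5.91%). The median departure of the members from their mean over the 9 tumours, on the log2(CPM + 0.5) scale, was 1.05 in AAV-∆mut-p53 6 and 0.50 in AAV-∆mut-p53 2, and -0.62 in AAV-∆mut-p53 5. In AAV-Control 1, 2 and 3 it was -0.66, -0.55 and 0.08. AAV-∆mut-p53 4 and 5, whose titles share a number, lay at 0.07 and -0.62.

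**Figure D3:**
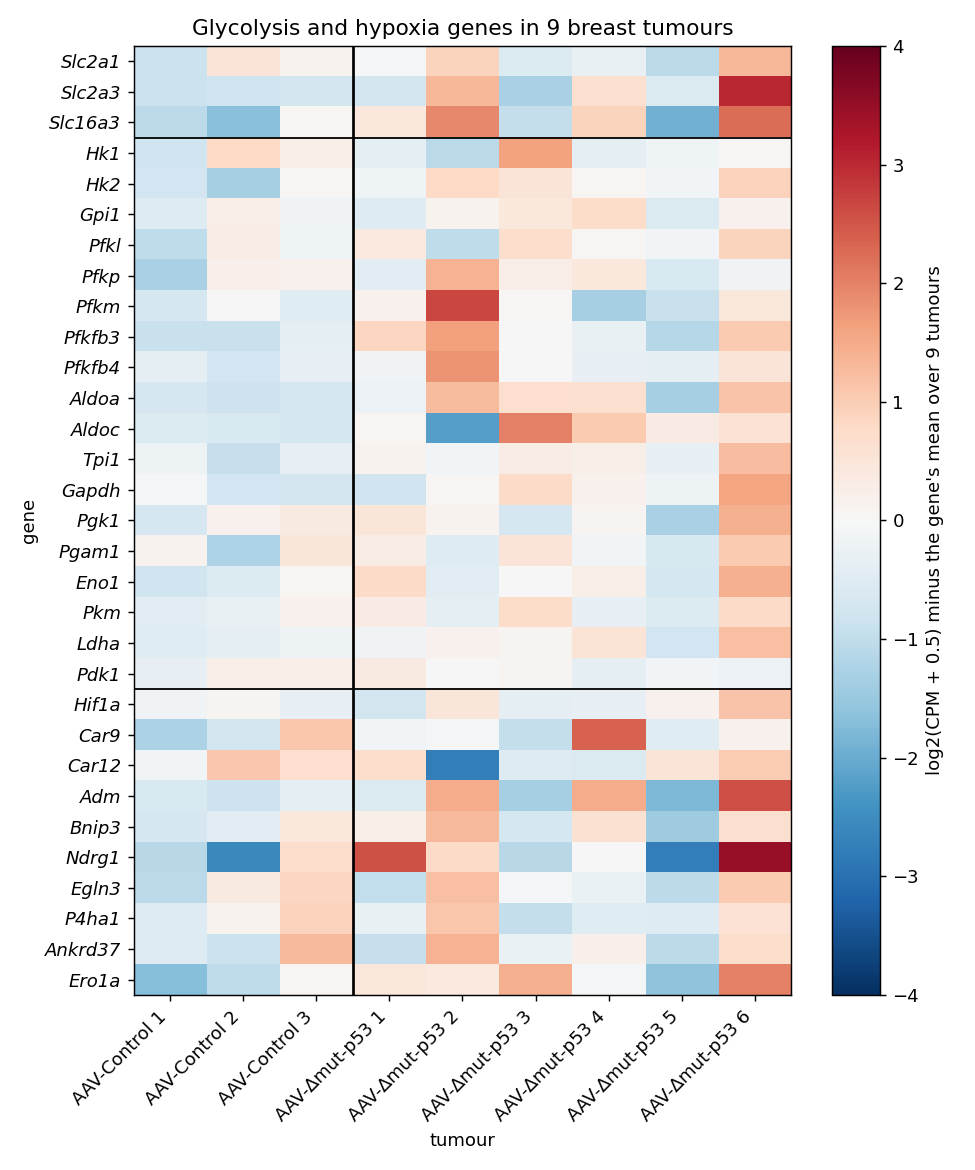
Level of each member in each tumour as log2(CPM + 0.5) minus the gene's mean over the 9 tumours, red above and blue below, with AAV-Control left of the vertical line and horizontal lines between the roles. The column of AAV-∆mut-p53 6 is red for most genes and that of AAV-∆mut-p53 5 blue, with medians of 1.05 and -0.62.

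The roles did not run in step in every tumour. In AAV-Control 3 the median departure was 0.68 for Hif1a and its targets and -0.15 for the enzymes. In AAV-∆mut-p53 3 the order was the reverse, with -0.61 for Hif1a and its targets, -0.95 for the carriers and 0.36 for the enzymes, and in AAV-∆mut-p53 6 all 3 roles were high (1.04, 2.24 and 0.90).

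Leaving out 1 tumour changed how many members passed an unadjusted p of 0.05 in the edgeR fit. The count was 0 without AAV-Control 1, without AAV-Control 2 or without AAV-∆mut-p53 6, and 8 without AAV-∆mut-p53 5, where 10.3% of all genes passed in either direction. In the 3 fits with 0 members the share of all genes was lower too, at 4.97%, 4.24% and 5.64%, against 7.07% with all 9 tumours. Without AAV-∆mut-p53 5, 4 members (Aldoa, Pfkfb3, Tpi1 and Ldha) had all remaining AAV-∆mut-p53 tumours above the controls, where 3.24% of all genes did. At an FDR of 0.05 the count of members was 0 in every one of these fits.

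Within families that share a reaction, the share of 1 form was computed from counts per exon length, which does not depend on library scaling. Of 11 such shares, 0 passed an adjusted p of 0.05 (exact 2-sided permutation test over the 84 assignments of 3 tumours among 9, Benjamini-Hochberg, smallest p the design allows 0.0119). Ldha made up 62.4%, 41.4% and 56.5% of Ldha plus Ldhb in the controls. In AAV-∆mut-p53 1 to 6 it made up 84.5%, 81.9%, 70.9%, 65.5%, 45.9% and 90.8%, so 5 of 6 were above every control. The means were 53.4% ± 10.8 (SD, n = 3) and 73.2% ± 16.3 (SD, n = 6), and the exact permutation p was 0.107 (adjusted 0.786).

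Hk2 made up 23.7% ± 11.9 (SD, n = 3) of the hexokinases in the controls and 37.5% ± 11.7 (SD, n = 6) in the others (exact permutation p = 0.143, adjusted 0.786). Slc16a3 made up 6.83% to 9.13% of Slc16a1 plus Slc16a3 in the controls. In AAV-∆mut-p53 1, 2, 4 and 6 it reached 21.9%, 46.6%, 26.7% and 49.8%, and in 3 and 5 it was below every control at 5.55% and 3.25% (exact permutation p = 0.226, adjusted 0.829). The AAV-∆mut-p53 group thus held both ends of the range.

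Muscle forms stood out in 1 tumour only. In AAV-∆mut-p53 2 Pfkm held 66.7% of its family, Eno3 87.6% of the enolases and Pgam2 95.8% of the phosphoglycerate mutases. In the other 8 tumours these shares were at most 26.9%, 12.4% and 37.5%. The 13 skeletal muscle markers tested were all highest in that tumour, and Tnnc2, the other gene of that list, was at 0 in the other 8.

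**Figure D4:**
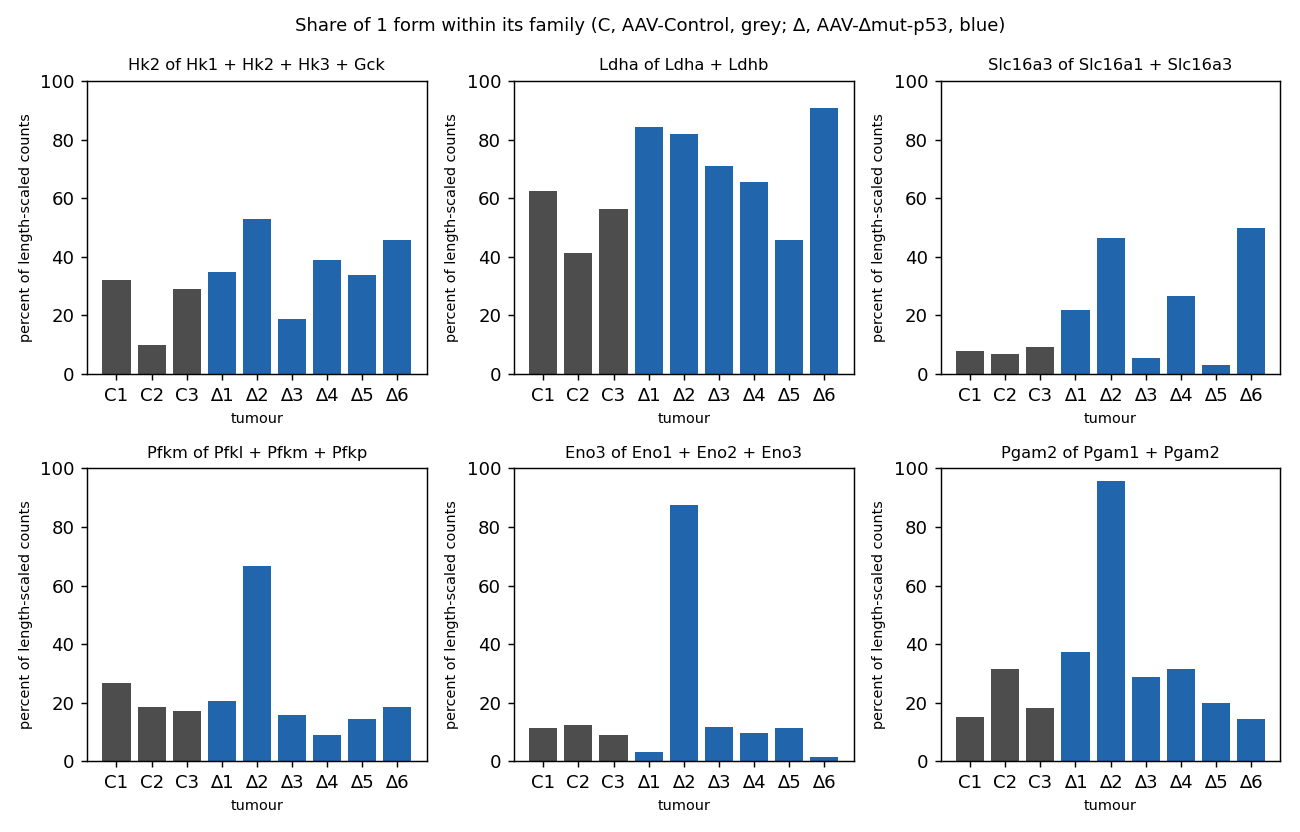
Share of 1 form within its isoenzyme family in each tumour, in percent of counts per exon length; grey bars are AAV-Control (C1 to C3) and blue bars AAV-∆mut-p53 (∆1 to ∆6). The shares of Pfkm, Eno3 and Pgam2 are high in AAV-∆mut-p53 2 alone, at 66.7%, 87.6% and 95.8%.

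Genes next to a member can show whether its whole stretch of chromosome is high in a tumour. For each member the protein-coding genes within 2 Mb were taken, and their median log2 ratio to the median tumour was read. This median lay beyond 0.5 in either direction in 18 of 279 pairs of a member and a tumour. For Car9 in AAV-∆mut-p53 4 the gene's own ratio was 2.45 and the median of its 47 neighbours on chromosome 4 was 1.07. For Ndrg1 in AAV-∆mut-p53 6 the values were 3.47 and, over 7 neighbours, 0.99, but in AAV-∆mut-p53 1 they were 2.53 and -0.10. Ndrg1 was therefore high once beside raised neighbours and once not. In AAV-Control 2 its neighbours were raised (0.60) while Ndrg1 itself was low (-2.60). Neighbours were also raised for Aldoa and Ldha in AAV-∆mut-p53 4 (0.55 and 0.52, own ratios 0.89 and 0.69). The same held for Aldoc and Pfkfb3 in AAV-∆mut-p53 3 (0.53 and 0.57, own ratios 1.94 and 0.28). For Hk2 they were raised in AAV-∆mut-p53 4 (0.71, own ratio 0.03) and lowered in AAV-∆mut-p53 2 (-0.67, own ratio 0.77).

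Around Ero1a the neighbour median in AAV-Control 3 was 1.69 over 14 genes within 2 Mb but 0.03 over the 5 genes within 1 Mb, so the raised genes there were not those nearest to it, and Ero1a itself was at the median tumour's level. In AAV-∆mut-p53 3 and 6, where Ero1a was highest, the neighbours within 2 Mb lay at 0.00 and -0.01. For Car9 in AAV-∆mut-p53 4 and Ndrg1 in AAV-∆mut-p53 6 the medians within 1 Mb were 1.11 over 28 genes and 1.52 over 4. Hk1, high in AAV-∆mut-p53 3 with a ratio of 1.78, had 30 neighbours with a median of 0.20. Slc2a3 in AAV-∆mut-p53 6 had a ratio of 3.75 and a median of 0.15 over 31 neighbours. DNA copy number was not measured, and its part in these levels was not tested.

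**Figure D5:**
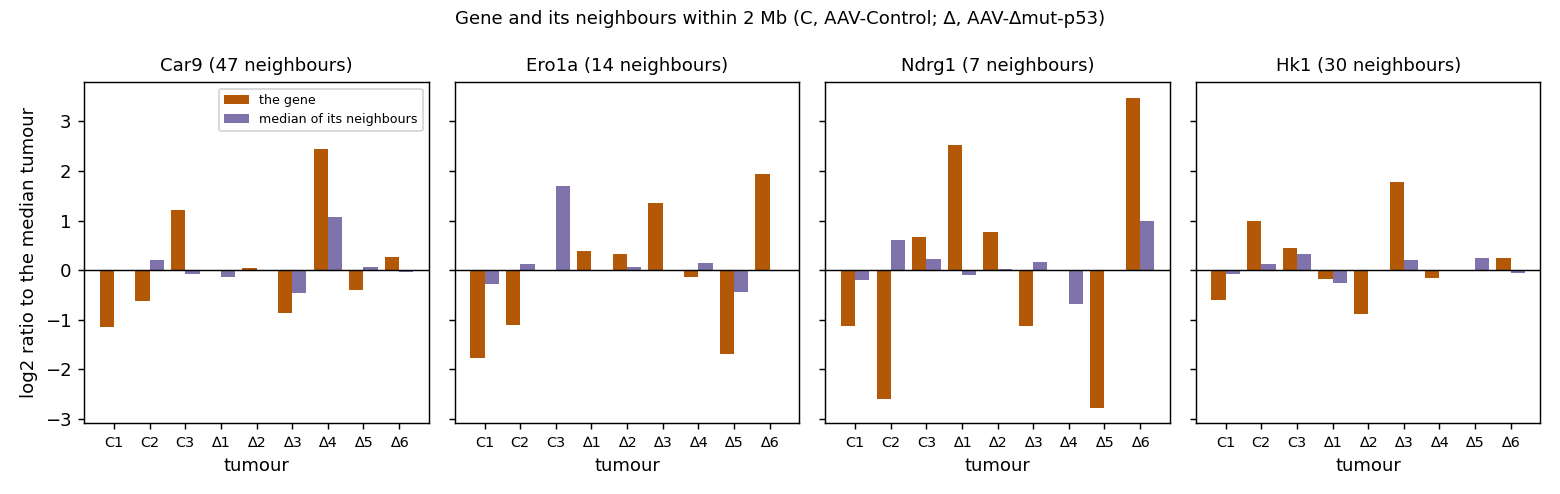
Log2 ratio to the median tumour of 4 members (brown) and of the median of their protein-coding neighbours within 2 Mb (violet) in each tumour (C1 to C3, AAV-Control; ∆1 to ∆6, AAV-∆mut-p53). Neighbours are raised with Car9 in AAV-∆mut-p53 4 (1.07) and with Ndrg1 in AAV-∆mut-p53 6 (0.99), and in AAV-Control 3 for Ero1a (1.69, but 0.03 within 1 Mb), while Ero1a is not. In AAV-Control 2 the neighbours of Ndrg1 are raised (0.60) while Ndrg1 is low (-2.60).

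Other genes of the pathway came from 3 lists. Of 33 further genes of glycolysis, glycogen and pyruvate use, 30 were tested, with 20 higher and 10 lower and a median log2 fold change of 0.29. At an unadjusted p under 0.05 there was 1 in each direction and at an FDR of 0.05 there were 0 (edgeR). Pdk3, a pyruvate dehydrogenase kinase like Pdk1, was 46.2, 124 and 52.2 CPM in the controls and 37.7, 21.7, 18.9, 33.9, 30.1 and 24.4 CPM in AAV-∆mut-p53 1 to 6. All 6 were below every control, with a log2 fold change of -1.42 ± 0.36 (SE; edgeR FDR = 0.677), and -0.81 without AAV-Control 2. The gene higher at that p was Pgam2, at 106 CPM in AAV-∆mut-p53 2 and 1.06 to 5.08 CPM elsewhere, with a log2 fold change of 3.67, and 0.98 without that tumour. For Ldhb, the other lactate dehydrogenase subunit, the log2 fold change was -0.77 ± 0.51 (SE), and -0.36 without AAV-Control 2.

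Of 10 further genes of the HIF pathway, 6 were higher and 4 lower with a median of 0.05, 1 passed the unadjusted p and 0 the FDR. That gene was Cited2, which competes with HIF for its coactivator p300 and is itself induced by HIF. It was 11.1, 27.6 and 8.83 CPM in the controls and 33.8, 33.4, 47.9, 32.2, 40.3 and 34.9 CPM in AAV-∆mut-p53 1 to 6. All 6 were above every control, with a log2 fold change of 1.23 ± 0.39 (SE; edgeR FDR = 0.677), and 1.90 without AAV-Control 2. Epas1 and Arnt, the HIF2A gene and the HIF partner, had log2 fold changes of 0.09 and 0.23, which ran from -0.26 to 0.53 and from 0.05 to 0.48 with single tumours left out.

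Of 35 further HIF targets, 25 were higher and 10 lower with a median of 0.23, and 0 passed the FDR. Nfil3, a transcription factor, differed by a log2 fold change of 2.11 ± 0.75 (SE; edgeR FDR = 0.677), with 5 of 6 above the controls and AAV-∆mut-p53 5 below them. Ddit4, which inhibits mTORC1 under stress, had 0.84 ± 0.36 (SE; edgeR FDR = 0.677), with 5 of 6 above the controls. Stc2, a secreted glycoprotein, had -2.77 ± 0.96 (SE; edgeR FDR = 0.677), but AAV-Control 1 alone was at 277 CPM, and without that tumour the value was 0.73. AAV-∆mut-p53 5 was lowest for 10 of these 35 genes, and AAV-∆mut-p53 6 and 2 were each highest for 10. Vegfa, the angiogenic factor, was 78.3 to 198 CPM in the controls and 54.8 to 338 CPM in the others, with a log2 fold change of 0.68 ± 0.57 (SE), from 0.43 without AAV-Control 1 to 1.19 without AAV-Control 3.

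Markers of other cells also differed between tumours, and their part in the members' levels was not tested. All 7 macrophage markers tested had higher fitted means in the AAV-∆mut-p53 tumours. Their summed levels were 452 to 683 CPM in the controls. In AAV-∆mut-p53 1 to 6 the sums were 487, 2640, 687, 709, 305 and 1181 CPM. All 7 were highest in AAV-∆mut-p53 2, and 6 were lowest in AAV-∆mut-p53 5, the tumour that was lowest for 12 of 31 members, more than any other, although AAV-Control 1 had the lower median departure. All 6 neutrophil markers were higher, 2 (Csf3r and Il1b) at an unadjusted p under 0.05 in edgeR, with sums of 5.40 to 60.3 and 44.4 to 197 CPM, and Retnlg was at 0 in AAV-Control 2.

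Endothelial markers went the other way: 7 of 8 were lower, 4 of them (Pecam1, Cdh5, Emcn and Cldn5) at an unadjusted p under 0.05 in edgeR, with sums of 258 to 591 CPM in the controls and 135 to 371 CPM in the others. Red cell genes had lower fitted means in 5 of 5 cases, with sums of 207 to 1195 and 98.9 to 441 CPM. All 5 were highest in AAV-Control 3 (1195 CPM), while AAV-Control 1 and 2 summed to 255 and 207 CPM. AAV-∆mut-p53 1, 2, 4 and 6 lay above these 2 controls at 258, 441, 322 and 301 CPM. Cell division genes were lower in 8 of 8 cases, with sums of 1900 to 2803 and 657 to 2155 CPM and the lowest sum in AAV-∆mut-p53 2. None of the endothelial, red cell or cell division markers was at 0 in any tumour.

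Mammary epithelial markers were higher in 5 of 8 cases, with sums of 1468 to 2847 CPM in the controls and 229 to 5166 CPM in the others. The sum was highest in AAV-∆mut-p53 6 and lowest in AAV-∆mut-p53 2, so the markers of the labelled tissue were weakest in the latter. Krt14, whose promoter drives the Cre, was 3.90 to 52.9 CPM in the controls and 8.92 to 860.4 CPM in the others, with AAV-∆mut-p53 6 the highest. Fibroblast markers were higher in 3 of 7 cases (467 to 3851 and 518 to 7956 CPM), adipocyte markers in 5 of 7 (69.2 to 153 and 17.4 to 516 CPM, with Lep at 0 in AAV-∆mut-p53 6), and T and B cell markers in 2 of the 4 tested (6.38 to 34.4 and 3.18 to 149.6 CPM, with Cd3e at 0 in AAV-∆mut-p53 3). Skeletal muscle markers were higher in 13 of 13 cases, with sums of 60.0 to 188 CPM in the controls and Ckm at 0 in AAV-∆mut-p53 6.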

How the data were processed

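Stranded total RNA libraries were made from frozen tumours, per the labels' protocols. The authors deposited raw read counts per gene, 1 column per tumour and Ensembl identifiers as rows. Per the submitters' processing notes STAR 2.6.0b, DESeq2 and GRCm38 were used, but their order and purpose are not stated. How reads were counted (program, strandedness, treatment of reads that fit several genes, annotation release) was not found in the sources used here. Symbols, positions and exon lengths came from GENCODE M21 on GRCm38, and Ero1a was matched through its older symbol. 0 columns lacked a sample. Promoter windows came from RefSeq on GRCm38.p6.

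Genes kept by filterByExpr (minimum count 10) were tested on all 9 tumours with edgeR 4.0.16 in R 4.3.3 (TMM factors, 2-sided quasi-likelihood test, no covariate), adjusted by Benjamini-Hochberg over 19606 genes at an FDR of 0.05. DESeq2 1.42.0, limma 3.58.1 (voom with sample quality weights), other scaling, filters and samples, and counts summed with named gene copies, were alternatives. The fits were tested on simulated data. Neighbours had a mean of at least 5 CPM. The members, lists and tests were chosen with earlier results of these data known, and the comparison of 100-base runs was added after values were seen. All members were named, as were list genes with the smallest p or a muscle form, and Vegfa, Epas1, Arnt, Krt14 and the single marker genes were chosen after their values were seen. The lowest count of any member in a tumour was 42 (Ankrd37). Read counts alone did not set the precision: Hk1 had at least 1880 counts in every tumour, and its log2 fold change had an SE of 0.57.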

Additional observations from a re-analysis of the deposited data

Results flagged for a closer look

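Within the 6 AAV-∆mut-p53 tumours, 10 of 42 sets of values (31 members and 11 shares) had a tumour whose gap to its nearest neighbour exceeded 0.625 of the whole range. Chance flags about 1 in 20 such sets only where values are normally distributed. The values were CPM and percentages without a log scale, and their distribution was not tested, so that rate may not hold here. The sets also share tumours, so the flags are not independent.

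AAV-∆mut-p53 2 gave 6 of them, all on the high side. Pfkp was 259.9 CPM there (next 130.3), Pfkm 235.2 CPM (next 50.2) and Pfkfb4 35.3 CPM (next 14.1). Pfkm made up 66.7% of its family (next 20.5%), Eno3 87.6% (next 11.8%) and Pgam2 95.8% (next 37.5%). This tumour also held the skeletal muscle markers, and their part in the levels of Pfkp and Pfkfb4 was not tested.

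In AAV-∆mut-p53 6, Slc2a3 was 63.8 CPM (next 19.4) and Tpi1 1255 CPM (next 656). In AAV-∆mut-p53 3, Hk1 was 556 CPM (next 190.2). In AAV-∆mut-p53 4, Car9 was 32.0 CPM (next 6.64).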

How the results depend on the processing

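At an FDR of 0.05 the count of members was 0 under every alternative run. The median log2 fold change of the members ran from 0.37 to 0.85 with single tumours left out, and members with a higher mean numbered 23 to 29 over all alternatives (that count was added after seeing the data). DESeq2 called 105 genes of all at its adjusted threshold, where edgeR called 0. At an unadjusted p under 0.05 the count of members, 3 in the text, was 10 with DESeq2 (10.2% of all genes in either direction, against 7.07% in the text's fit), 5 with no filter on low counts (6.89%), 6 with the 2 tumours of the same title number summed (8.72%), and 0 to 8 with single tumours left out (4.24% to 10.3%). Members whose groups did not overlap numbered 0 to 4 with single tumours left out. The 4 came without AAV-∆mut-p53 5 and were all higher, where 3.24% of all genes were higher without overlap. No share over all genes was taken for the other fits. Neighbour medians beyond 0.5 numbered 29 with a 1 Mb window.

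The log2 fold change of Egln3, near 0 in the text, turned to 0.0106 with DESeq2, 0.0107 with its size factors in edgeR, 0.0228 with library size alone, 0.161 with limma voom, 0.0177 with a stricter filter and 0.123 with those tumours summed. Hk1 turned to 0.27 with voom and 0.0696 with the sum, Ankrd37 to 0.0085 and 0.0491, and Pdk1 to 0.0462 with voom. With single tumours left out, log2 fold changes that changed sign ran from -0.10 to 0.57 (Slc2a1), -0.57 to 0.40 (Hk1), -0.14 to 0.46 (Pgk1), -0.089 to 0.63 (Pgam1), -0.33 to 1.76 (Car9), -0.39 to 0.43 (Egln3), -0.53 to 0.23 (P4ha1) and -0.46 to 1.06 (Ankrd37). Differences in isoenzyme share that changed sign ran, in percentage points, from -3.12 to 0.42 (Pfkp), -5.22 to 6.31 (Pfkm), -3.41 to 13.8 (Eno3) and -2.07 to 7.73 (Pdk1). The cause was not tested.

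No paired analysis was possible because the labels give no replicate number that links tumours across the groups. With 3 controls, 1 tumour can decide an unadjusted call.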

Other observations

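Eno1b, a gene whose transcript closely matches that of the enolase gene Eno1, had 415 counts in AAV-Control 1 and 343 in AAV-∆mut-p53 2, and 1 to 15 in the other 7 tumours. It held 12.2% and 10.7% of the counts of both genes in those 2 tumours and at most 0.399% elsewhere. The 2 tumours belong to different groups, and no label given here sets them apart.

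Forms of the same step of glycolysis, Hk1 with Hk2 and Aldoc with Aldoa, did not order the tumours alike. AAV-∆mut-p53 2 had the lowest Hk1 of the 9 (86.9 CPM), with Hk2 at 112 CPM. It also had the lowest Aldoc (13.2 CPM) and the highest Aldoa (1467 CPM). Across these steps, Hk1 and Aldoc were both highest in AAV-∆mut-p53 3 (556 and 250.1 CPM) and both lowest in AAV-∆mut-p53 2.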
